A study of Mus musculus with 9 samples.

Results

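The genes of the 5 complexes of oxidative phosphorylation were followed in mouse leukemia stem cells after knockdown of Csnk1a1. Members were taken by name: probes whose gene symbol on the array's platform begins with Nduf, Uqcr, Atp5 or Cox4 to Cox8, or is one of Sdha to Sdhd, with a detection p under 0.05 on 3 or more of the 9 arrays. Of 135 such probes for 87 genes, 106 probes for 76 genes passed, among 13641 detected probes (8027 genes) of 45281 on the array. The name rule leaves out the subunits encoded by mitochondrial DNA, cytochrome c and its relatives, and Cyc1, the nuclear-encoded cytochrome c1 of complex III. It takes in the complex I assembly factors (Ndufaf) and 1 probe annotated to a pseudogene, Ndufs5-ps.

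All samples were bone marrow cells of the C57BL/6 strain carrying Actin-dsRed, a red fluorescent reporter, and the MLL-AF9 oncogene, a leukemia-causing fusion. They came from leukemic mice of the quaternary transplant and were sorted as dsRed-positive, low in Hoechst dye, high in c-kit and FcγRII, and positive for CD34. The control group (Luc) carried a hairpin RNA against luciferase, and the other groups carried hairpin 94 or hairpin 97 against Csnk1a1, which encodes casein kinase 1 alpha; each group had 3 arrays. The single Csnk1a1 probe was detected on 0 of the 9 arrays, with normalized log2 signals of 4.24, 4.44 and 4.24 in Luc, 4.39, 4.22 and 4.21 with hairpin 94, and 4.38, 4.32 and 4.26 with hairpin 97, so these arrays cannot check the knockdown and the groups are used as labelled. Whether arrays of 1 group stem from different mice is not given in the labels, and the p-values cover the spread between these samples alone, which may be technical.

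Oxidative phosphorylation couples the transfer of electrons from NADH and succinate to oxygen with the pumping of protons across the inner mitochondrial membrane. Complexes I and II pass electrons to ubiquinone, complex III passes them to cytochrome c and complex IV to oxygen, and complex V, the ATP synthase, uses the returning protons to make ATP. In human acute myeloid leukemia, stem cells are known to rely on this pathway for their energy.

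Promoters of such nuclear genes are known for sites of the NRF1, ETS-family (GABP) and YY1 factors. RefSeq promoters (GRCm38.p6, from 250 bases before to 50 after the gene start) were found for 66 of the 76 genes and searched on both strands for CCGGAAG (ETS), the row GCGC, A, any base, GCGC (NRF1) and AAGATGGC (YY1). At least 1 of these was present in 57.6% of the 66 genes, against 16.4% of all 27025 genes in the table and 21.0% of 17491 protein-coding ones. By motif the shares were 25.8% for ETS, 24.2% for NRF1 and 16.7% for YY1, against 9.93%, 5.19% and 3.19% of all genes. Among protein-coding genes they were 12.9%, 7.17% and 3.57%. The NRF1 letters can match both strands at the same place. Promoters of 3 genes with a probe that rose (Ndufs8, Sdhb, Atp5pb) and 2 with a probe that fell (Ndufaf4, Cox6a1) are shown to set the motifs beside both directions, 5′ to 3′ along the gene, with matches in capitals; a match on the opposite strand appears as its reverse complement.
Ndufs8: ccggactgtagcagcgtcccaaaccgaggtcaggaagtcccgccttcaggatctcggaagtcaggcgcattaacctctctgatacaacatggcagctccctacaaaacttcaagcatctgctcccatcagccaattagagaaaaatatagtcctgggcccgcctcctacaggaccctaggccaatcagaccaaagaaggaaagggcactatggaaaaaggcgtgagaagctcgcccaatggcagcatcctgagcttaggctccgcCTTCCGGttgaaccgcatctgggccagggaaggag
Sdhb: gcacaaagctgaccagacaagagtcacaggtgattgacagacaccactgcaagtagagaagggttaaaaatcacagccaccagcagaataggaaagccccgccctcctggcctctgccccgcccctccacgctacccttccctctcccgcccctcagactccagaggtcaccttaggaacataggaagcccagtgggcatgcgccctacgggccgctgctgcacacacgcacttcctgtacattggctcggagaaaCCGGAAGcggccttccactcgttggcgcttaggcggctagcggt
Atp5pb: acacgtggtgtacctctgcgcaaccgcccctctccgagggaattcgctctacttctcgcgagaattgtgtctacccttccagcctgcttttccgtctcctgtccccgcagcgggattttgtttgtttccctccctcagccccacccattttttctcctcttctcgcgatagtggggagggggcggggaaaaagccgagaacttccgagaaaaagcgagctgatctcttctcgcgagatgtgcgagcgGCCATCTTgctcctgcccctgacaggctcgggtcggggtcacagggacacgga
Ndufaf4: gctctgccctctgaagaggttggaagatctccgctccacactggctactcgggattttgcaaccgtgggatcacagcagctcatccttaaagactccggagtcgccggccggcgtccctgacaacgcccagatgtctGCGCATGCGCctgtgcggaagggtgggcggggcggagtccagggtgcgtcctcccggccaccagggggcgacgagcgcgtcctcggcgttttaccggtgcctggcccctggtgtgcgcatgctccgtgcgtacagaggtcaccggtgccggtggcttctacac
Cox6a1: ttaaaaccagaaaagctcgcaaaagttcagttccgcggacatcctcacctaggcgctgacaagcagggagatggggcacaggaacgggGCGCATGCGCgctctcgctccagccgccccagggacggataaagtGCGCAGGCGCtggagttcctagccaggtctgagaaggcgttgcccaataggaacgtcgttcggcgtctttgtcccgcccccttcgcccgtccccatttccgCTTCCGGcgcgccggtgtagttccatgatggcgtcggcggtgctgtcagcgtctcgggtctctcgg
They lie at chr19:3912725-3913024, minus strand (Ndufs8), chr4:140961021-140961320, plus strand (Sdhb), chr3:105959214-105959513, minus strand (Atp5pb), chr4:24897833-24898132, plus strand (Ndufaf4) and chr5:115348909-115349208, minus strand (Cox6a1). Ndufs8 and Sdhb each hold 1 ETS match just after the gene start. Atp5pb holds a YY1 match that begins 3 bases before the gene start and runs across it, and Ndufaf4 holds an NRF1 match. Cox6a1 holds NRF1 matches and 1 ETS match. Among genes whose called probes only rose, 52.4% of 21 held at least 1 motif, against 70.6% of 17 whose called probes only fell and 51.9% of 27 with no probe past the threshold, so the motifs were present in both directions of change; Ndufc1, which had a probe called each way, is in neither group and held a YY1 match. These are letter matches, not binding sites.

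Signals were weaker in the Luc group. Its arrays detected 9262 to 10347 probes, those of hairpin 94 13053 to 14280 and those of hairpin 97 12969 to 14168, with mean signals of 129.3 to 131.7, 167.6 to 195.8 and 174.6 to 201.1. Brightness and knockdown therefore cannot be told apart against Luc. Neutrophil markers also moved: all 7 detected probes of that list rose, and their summed normalized signal was 4466 to 5045 on Luc arrays, 9677 to 9924 with hairpin 94 and 9351 to 11113 with hairpin 97. Of the 15 detected probes for the sort gate and the MLL-AF9 program 7 rose and 0 fell. The risers were probes of Mpo, Fcgr3 and Fcgr2b. Detected probes of Kit, Cd34, Hoxa9 and Meis1 did not pass, with values on both sides of 0. Both detected mast cell and basophil probes were of Cpa3 and rose, with 0 Luc arrays detecting either. In the monocyte, B cell and megakaryocyte lists, with 2, 2 and 1 detected probes, 0 rose and 0 fell. These are too few to show a lineage unchanged. No erythroid or T and NK probe passed the detection filter. Of all probes tested, 25.0% rose and 15.2% fell with both hairpins averaged. The parts of brightness and of neutrophil transcripts in the results below were not tested, and in bulk RNA fewer cells of a type and less RNA per cell cannot be told apart.

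Against Luc, with both hairpins averaged, 28 of the 106 probes rose and 25 fell (limma adjusted p under 0.05), where 25.0% and 15.2% of all probes tested did (40.2% in either direction). As shares, 26.4% of the members rose and 23.6% fell. The members were mostly bright: 85 were detected on all 9 arrays, and of these 26 (30.6%) rose and 25 (29.4%) fell, against 22.0% and 25.9% of the 6891 probes detected that widely. Their median log2 fold change was 0.06, against 0.11 over all probes, and their median absolute change was 0.37 against 0.35. All 6 knockdown arrays lay above all 3 Luc arrays for 28 members and below them for 22, against 21.5% and 12.6% of all probes. By gene, 25 genes had probes that only rose, 20 had probes that only fell, 1 had both and 30 had no probe past the threshold.

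Changes are relative to each array as a whole. Before normalization, the mean signal was higher with knockdown for all 28 risers and all 25 fallers, with median ratios of 3.262 and 1.691. Among all probes tested, the median ratios were 1.490 for those called higher and 1.310 for those called lower. The mean signal was lower with knockdown for 0 of the 3411 called higher and for 325 of the 2074 called lower. In an alternative, arrays were scaled to the median of all 45281 probes on the array (all-probe scaling), of which each array detected 20.5% to 31.5%. The median change over the 13641 probes tested then became 0.88. All 25 fallers lay above 0 and 15 of them below that median, and of the 28 risers 27 lay above it. Scaling over probes that every array detected gave a median of -0.55 over the probes tested. There 27 of the 28 risers stayed above 0, all 25 fallers stayed below 0, and 15 fallers lay below that median. Every fall of a member named below therefore turns positive with all-probe scaling. With each array's detected-probe count as a covariate, no member passed in either direction and 10 had an unadjusted limma p under 0.05.

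**Figure D1:**
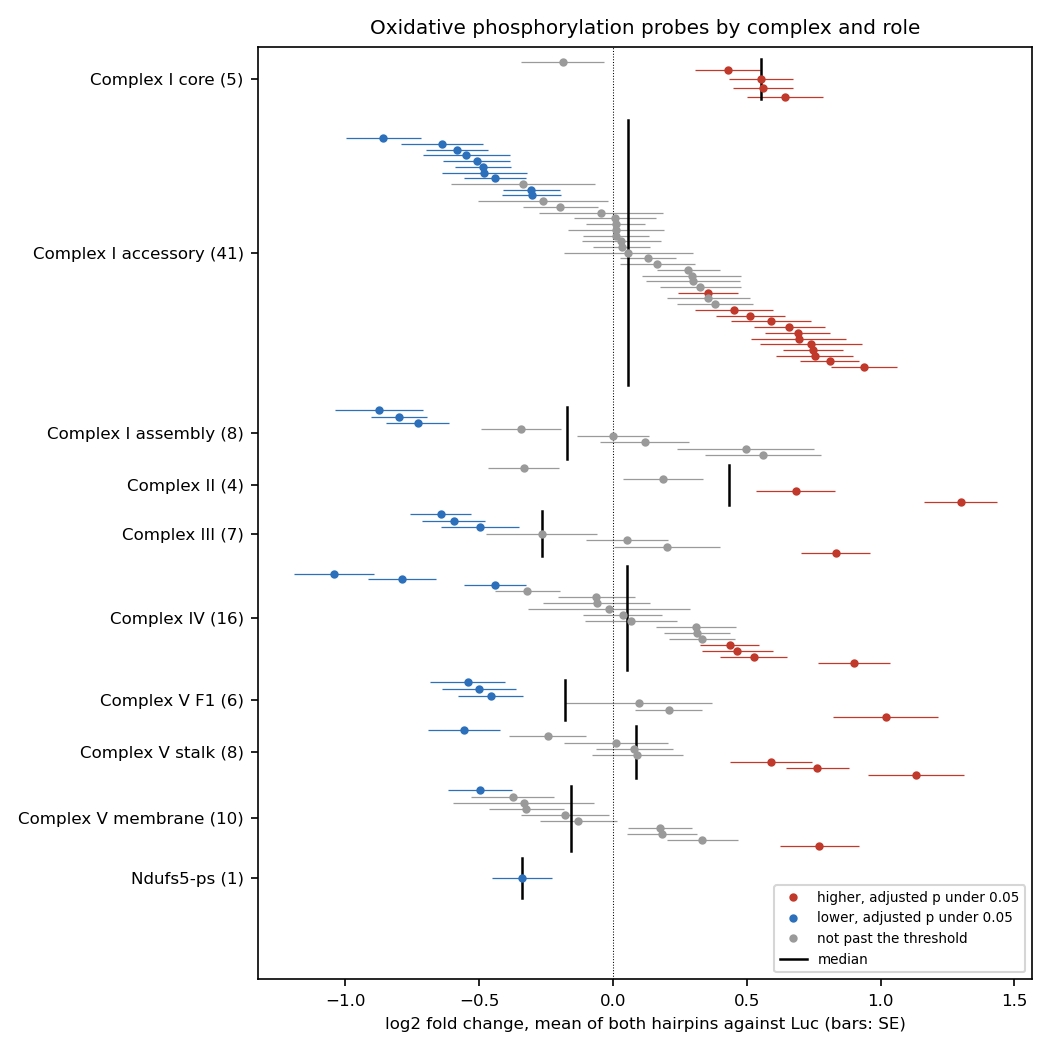
Log2 fold change of each of the 106 probes (mean of both hairpins against Luc, bars are standard errors), grouped by complex and role with the number of probes in brackets; black lines are medians. Rises and falls past the threshold stand side by side in most groups, while 4 of 5 complex I core probes rose and the 3 called assembly factor probes fell; falls turn positive when arrays are scaled to the median of all probes.

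The core of complex I, the subunits that carry the flavin and most iron-sulfur clusters, was higher with knockdown at 4 of its 5 probes, with a median of 0.55. Beside this group and those below, 25.0% of all probes tested rose and 15.2% fell with both hairpins averaged. Ndufs8, an iron-sulfur subunit near the ubiquinone site, measured 9.24, 9.08 and 9.19 on the Luc arrays, 9.73, 9.57 and 9.79 with hairpin 94, and 9.69, 9.76 and 9.87 with hairpin 97 (normalized log2 signal). All knockdown values exceeded all Luc values, and the rise was 0.56 on the log2 scale (SE 0.11, limma adjusted p = 0.00296). Ndufv2, an iron-sulfur subunit of the NADH-oxidizing module, measured 9.19, 9.0 and 9.39 on the Luc arrays, 9.76, 9.78 and 9.83 with hairpin 94, and 9.78, 9.71 and 9.63 with hairpin 97. Its groups did not overlap either, and it rose by 0.55 (SE 0.12, limma adjusted p = 0.00437). Ndufs7, which hands electrons to ubiquinone, rose by 0.43 (SE 0.12, limma adjusted p = 0.0179), without overlap; without Luc replicate 2 its adjusted p was 0.0647. Ndufs3, of the same ubiquinone module, rose by 0.64 (SE 0.14, limma adjusted p = 0.00497), although the lowest hairpin 94 array, at 7.20, lay just under the highest Luc array, at 7.21. The exception was Ndufv1, the subunit that oxidizes NADH, with -0.19 (SE 0.15, limma adjusted p = 0.349) and overlapping groups. Ndufs1, the largest core subunit, was detected on 1 array only and has no value.

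Accessory subunits of complex I surround the core and are needed for its assembly and stability. Of their 41 probes 12 (29.3%) rose and 10 (24.4%) fell, against 25.0% and 15.2% of all probes tested. The median was 0.06, so the group had no common direction. Ndufb10, an accessory subunit of the membrane arm, measured 5.70, 5.77 and 5.62 on the Luc arrays, 6.75, 6.81 and 7.02 with hairpin 94, and 6.23, 6.59 and 6.43 with hairpin 97 at its probe detected on all arrays. It rose by 0.94 (SE 0.12, limma adjusted p = 0.000381), with every hairpin 97 array between the Luc and hairpin 94 arrays. The other Ndufb10 probe, which all 6 knockdown arrays and 0 of 3 Luc arrays detected, was at least 1.08-fold higher, a bound set by the lowest detected signals of the Luc group, though its fitted change was -0.61 when scaled over probes that every array detected. Ndufa1, a small membrane subunit, rose by 0.81 (SE 0.11, limma adjusted p = 0.000429) and Ndufb3 by 0.75 (SE 0.11, limma adjusted p = 0.000657), each without overlap. Ndufs4, an accessory subunit whose loss causes mitochondrial disease, had 4 probes, all above 0, of which 2 passed at 0.59 and 0.66 and 2 did not at 0.30 (-0.48 when scaled over probes that every array detected) and 0.36 (0.50 without Luc replicate 1, limma adjusted p = 0.0276).

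Among the accessory subunits that fell, Ndufa5 measured 9.93, 10.17 and 9.55 on the Luc arrays, 9.09, 9.38 and 9.10 with hairpin 94, and 9.46, 9.29 and 9.16 with hairpin 97. The knockdown values all lay below the Luc values, and it fell by 0.64 (SE 0.15, limma adjusted p = 0.00792), while its other probe, detected on 6 arrays, gave 0.06. Ndufa9, which helps to hold the arms of the complex together, fell by 0.58 (SE 0.12, limma adjusted p = 0.00305), also without overlap. Ndufs6, with a probe between 11.76 and 11.87 in the Luc group and between 11.20 and 11.63 with knockdown, fell by 0.44 (SE 0.12, limma adjusted p = 0.0119), and its other probe gave -0.20 and did not pass. These falls turn positive with all-probe scaling, at 0.77, 0.75 and 1.00.

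Ndufc1, another small subunit of the membrane arm, was the only one of the 76 member genes whose probes passed in opposite directions. Both probes carry the same transcript accession. Probe ILMN_1229975 measured 11.30, 11.46 and 10.96 on the Luc arrays, 10.30, 10.63 and 10.33 with hairpin 94, and 10.28, 10.35 and 10.41 with hairpin 97. That is a fall of 0.86 (SE 0.14, limma adjusted p = 0.00104), without overlap. Probe ILMN_2983247 measured 6.32, 6.71 and 6.95 on the Luc arrays, 7.54, 7.45 and 7.31 with hairpin 94, and 7.31, 7.44 and 7.44 with hairpin 97. It rose by 0.75 (SE 0.14, limma adjusted p = 0.00245), also without overlap, so no direction can be given for the gene. With all-probe scaling the falling probe gave 0.52.

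Assembly factors build complex I and are not part of the finished enzyme. Of 8 probes 0 rose and 3 fell, with a median of -0.17 (0.85 with all-probe scaling). Ndufaf4, an early assembly factor, fell at both of its probes, by 0.87 (SE 0.16, limma adjusted p = 0.00214) and by 0.80 (SE 0.10, limma adjusted p = 0.000378). The second measured 9.10, 9.06 and 9.16 on the Luc arrays, 8.11, 8.24 and 8.18 with hairpin 94, and 8.43, 8.39 and 8.50 with hairpin 97. Every knockdown array lay below every Luc array, and the hairpin 94 arrays were the lowest. Ndufaf8 measured 8.22, 8.41 and 8.06 on the Luc arrays, 7.60, 7.44 and 7.61 with hairpin 94, and 7.47, 7.38 and 7.49 with hairpin 97. It fell by 0.73 (SE 0.12, limma adjusted p = 0.001), without overlap. Unnormalized, the second Ndufaf4 probe averaged 338.2 on Luc arrays, 447.6 with hairpin 94 and 529.3 with hairpin 97, so these are falls relative to the other probes of the array. Both genes were above 0 with all-probe scaling, at 0.53 and 0.63 for Ndufaf4 and 0.72 for Ndufaf8. Ndufaf1, Ndufaf2, Ndufaf3, Ndufaf5 and Ndufaf7 did not pass, at values from -0.34 to 0.56.

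Complex II, succinate dehydrogenase, oxidizes succinate for both the citric acid cycle and the respiratory chain and is encoded entirely in the nucleus. Its catalytic flavoprotein Sdha and the membrane anchor Sdhd were detected on 1 and 2 arrays and were not tested. Sdhc, the other anchor, measured 8.59, 8.14 and 8.48 on the Luc arrays, 9.25, 9.03 and 8.77 with hairpin 94, and 9.05, 9.14 and 9.29 with hairpin 97. It rose by 0.68 (SE 0.15, limma adjusted p = 0.00465), without overlap. The probes of Sdhb, the iron-sulfur subunit, disagreed. Probe ILMN_2769064 was detected with knockdown on all 6 arrays but on 0 of 3 with Luc, and was at least 1.91-fold higher. It passed the detection filter through the knockdown arrays alone, so its call among the rises is not independent of that filter. Probe ILMN_2769065, detected on all 9 arrays, gave 0.19 (SE 0.15, limma adjusted p = 0.339), and probe ILMN_2592389, detected on 3, gave -0.33 (SE 0.13, limma adjusted p = 0.0666). With hairpin 94 alone that last probe passed as lower, at -0.46 (limma adjusted p = 0.0422), and without hairpin 97 replicate 5 it passed at -0.39 (limma adjusted p = 0.0465), whereas no member passed as lower with all-probe scaling.

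Complex III, the cytochrome bc1 complex, had 7 probes, of which 1 rose and 3 fell, with a median of -0.27 (1.17 with all-probe scaling). Uqcr11, its smallest subunit, measured 9.91, 9.80 and 9.49 on the Luc arrays, 10.52, 10.66 and 10.75 with hairpin 94, and 10.44, 10.45 and 10.57 with hairpin 97. The rise was 0.83 (SE 0.13, limma adjusted p = 0.000777), without overlap. Uqcrc2, one of the core proteins, measured 11.27, 11.36 and 10.99 on the Luc arrays, 10.55, 10.52 and 10.50 with hairpin 94, and 10.62, 10.78 and 10.70 with hairpin 97. It fell by 0.60 (SE 0.12, limma adjusted p = 0.00301), with all knockdown arrays below all Luc arrays, while its partner Uqcrc1 gave 0.05 (SE 0.15, limma adjusted p = 0.807). Uqcr10, a small subunit, fell at both probes, by 0.64 (SE 0.11, limma adjusted p = 0.00167) and 0.50 (SE 0.15, limma adjusted p = 0.0205); the second did not pass without Luc replicate 2 (adjusted p = 0.077). All of these falls were positive with all-probe scaling, at 0.78 for Uqcrc2 and 0.83 and 0.99 for Uqcr10. The Rieske iron-sulfur protein gene Uqcrfs1 had no probe that passed the detection filter.

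Complex IV, cytochrome c oxidase, had 16 probes counting Ndufa4, a subunit first assigned to complex I. Here 4 (25.0%) rose and 3 (18.8%) fell, close to the shares of all probes tested, with a median of 0.05. Cox6c measured 8.02, 7.54 and 7.98 on the Luc arrays, 8.94, 8.87 and 8.77 with hairpin 94, and 8.65, 8.55 and 8.72 with hairpin 97. It rose by 0.90 (SE 0.13, limma adjusted p = 0.000651), without overlap. Cox5a rose by 0.53 (SE 0.12, limma adjusted p = 0.0069), with 9.72 to 9.99 on Luc arrays, 10.46 to 10.83 with hairpin 94 and 10.10 to 10.14 with hairpin 97. Cox7a2l, linked to the joining of complexes into supercomplexes, rose by 0.46 (SE 0.13, limma adjusted p = 0.0175); without Luc replicate 2 its adjusted p was 0.0682. Cox5b rose by 0.44 (SE 0.11, limma adjusted p = 0.00971) at 1 probe and gave 0.04 at the other.

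Several complex IV subunits exist as a widely expressed and a tissue-restricted form. Cox6a1, the widely expressed form, measured 12.54, 12.29 and 12.07 on the Luc arrays, 11.14, 11.43 and 10.87 with hairpin 94, and 11.39, 11.27 and 11.44 with hairpin 97 at probe ILMN_2638875. It fell by 1.04 (SE 0.15, limma adjusted p = 0.000573), without overlap, while probe ILMN_2605400 of the same transcript accession gave 0.31 (SE 0.12, limma adjusted p = 0.0643). Cox6b1 fell at both probes, by 0.79 (SE 0.13, limma adjusted p = 0.000969) and 0.44 (SE 0.12, limma adjusted p = 0.0121), each without overlap. With all-probe scaling the falls became 0.43 for Cox6a1 and 0.69 and 0.91 for Cox6b1. The tissue-restricted forms Cox6a2, known from heart and skeletal muscle, and Cox6b2, known from testis, each had a probe detected on all 9 arrays. These did not pass, at -0.06 and 0.07. A second Cox6b2 probe was detected on 0 arrays and was not tested. Cox7a1, the muscle form, gave 0.33 (SE 0.12, limma adjusted p = 0.0516), Cox7a2 -0.01, Cox4i1 0.31 and Ndufa4 -0.32, none past the threshold with all 9 arrays. Single arrays decided these calls: Cox7a2 passed at 0.49 without Luc replicate 2 (limma adjusted p = 0.0394) and at 0.44 with all-probe scaling (limma adjusted p = 0.0498), Cox4i1 at 0.46 without Luc replicate 3 (limma adjusted p = 0.0332) and Cox7a1 at 0.44 without Luc replicate 1 (limma adjusted p = 0.025). Ndufa4 passed as lower, at -0.36, without hairpin 97 replicate 4 (limma adjusted p = 0.0466; 1.08 with all-probe scaling and all arrays), and the other Cox6a1 probe as higher, at 0.38, without hairpin 94 replicate 3 (limma adjusted p = 0.0236). Cox4i2, Cox8b and Cox8c had no probe that passed the filter.

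**Figure D2:**
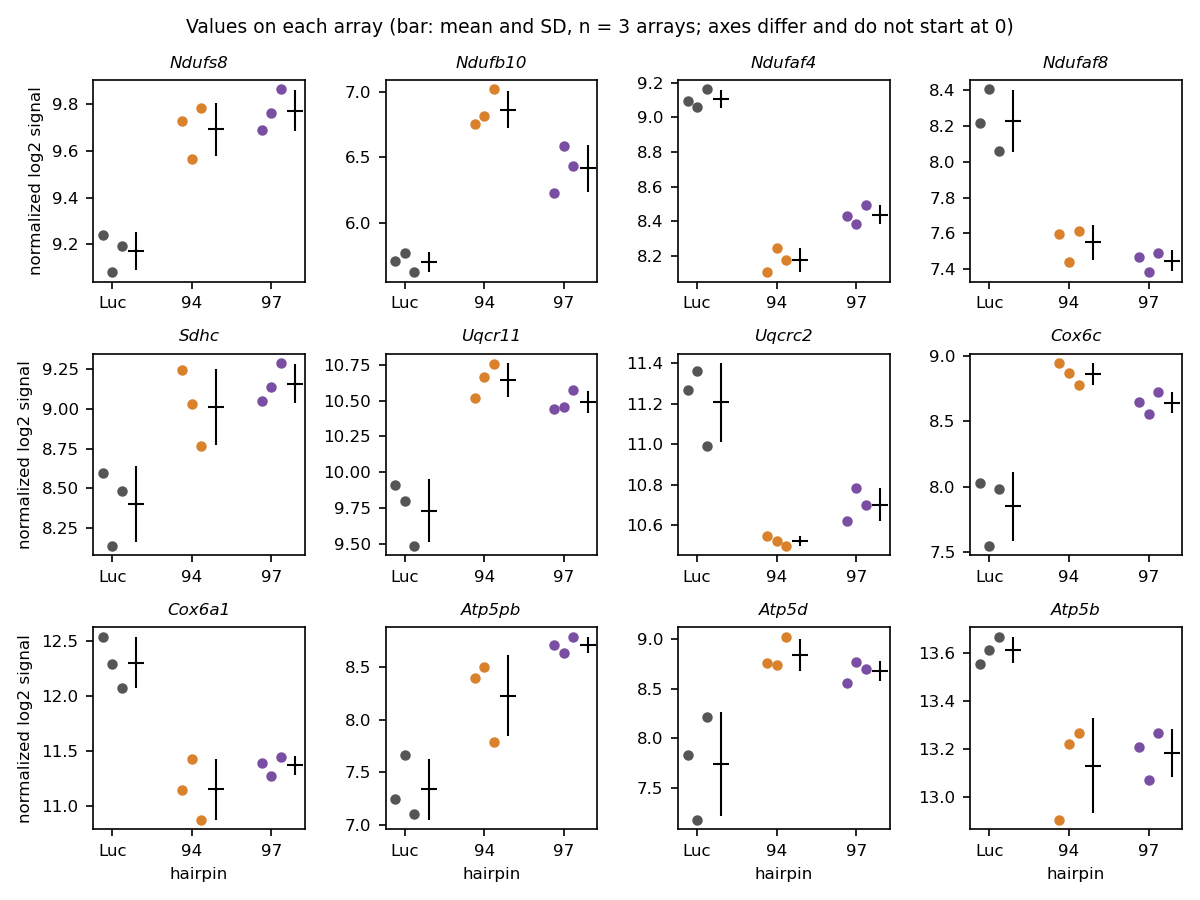
Normalized log2 signal of 12 probes on each array of the Luc, hairpin 94 and hairpin 97 groups, with the mean and SD (n = 3) beside the points; Ndufb10, Ndufaf4, Cox6a1 and Atp5pb are shown for 1 of their probes. All 6 knockdown arrays lie on one side of the 3 Luc arrays in every panel; the falls of Ndufaf4, Ndufaf8, Uqcrc2, Cox6a1 and Atp5b turn positive when arrays are scaled to the median of all probes.

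Complex V had 24 probes, of which 5 (20.8%) rose and 5 (20.8%) fell, against 25.0% and 15.2% of all probes tested. The median was 0.05. In the catalytic F1 head and its rotor, 1 of 6 probes rose and 3 fell. Atp5b, the catalytic beta subunit, measured 13.55, 13.61 and 13.67 on the Luc arrays, 12.90, 13.22 and 13.27 with hairpin 94, and 13.21, 13.07 and 13.27 with hairpin 97. The groups did not overlap, and it fell by 0.46 (SE 0.12, limma adjusted p = 0.0131). Atp5c1, the gamma subunit of the rotor, fell by 0.54 (SE 0.14, limma adjusted p = 0.0108), without overlap. Atp5a1, the alpha subunit, fell by 0.50 (SE 0.14, limma adjusted p = 0.0155) at 1 probe, a call lost without Luc replicate 1 (adjusted p = 0.0572), and gave 0.10 at the other. Atp5d, the delta subunit of the same rotor, went the other way. It measured 7.83, 7.18 and 8.21 on the Luc arrays, 8.76, 8.74 and 9.03 with hairpin 94, and 8.56, 8.76 and 8.70 with hairpin 97. The Luc arrays were widely spread but all lay below the knockdown arrays, and the rise was 1.02 (SE 0.20, limma adjusted p = 0.00251). With all-probe scaling Atp5b, Atp5c1 and Atp5a1 became 0.71, 0.89 and 0.85.

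The peripheral stalk holds the head still while the rotor turns. Of its 8 probes 3 rose and 1 fell. Atp5pb, the b subunit, measured 7.25, 7.66 and 7.10 on the Luc arrays, 8.40, 8.50 and 7.79 with hairpin 94, and 8.72, 8.64 and 8.79 with hairpin 97 at probe ILMN_1249817. It rose by 1.13 (SE 0.18, limma adjusted p = 0.000894), without overlap, but its other probes gave 0.09 and -0.24 and did not pass. Atp5o, which joins the stalk to the head, rose by 0.76 (SE 0.12, limma adjusted p = 0.000803) at 1 probe and gave 0.01 at the other. Atp5h, the d subunit, rose by 0.59 (SE 0.15, limma adjusted p = 0.0115). Atp5j, coupling factor 6, fell by 0.56 (SE 0.13, limma adjusted p = 0.00772) at 1 probe (0.87 with all-probe scaling) and gave 0.08 at the other.

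In the membrane part of complex V, 1 of 10 probes rose and 1 fell. Atp5mpl, a small proteolipid, rose by 0.77 (SE 0.15, limma adjusted p = 0.00236) at its probe detected on all arrays and gave -0.18 at the other. Atp5j2, the f subunit, fell by 0.50 (SE 0.12, limma adjusted p = 0.00779), or 1.02 above 0 with all-probe scaling. Atp5g2 and Atp5g3, which encode the same subunit of the proton-driven ring, gave -0.13 and -0.32 and did not pass. Probes of Atp5e, Atp5k, Atp5md and 1 of Ndufv3 were detected on 0 Luc arrays and on 3 to 5 of the 6 knockdown arrays. With both hairpins averaged none of these passed with all 9 arrays (Atp5k did without hairpin 94 replicate 3 or hairpin 97 replicate 6), and they have no fold, because the knockdown means lay under the detection floor of the Luc arrays. The pseudogene probe Ndufs5-ps fell by 0.34 (SE 0.11, limma adjusted p = 0.0343), a call lost in 7 of the 9 fits that left out 1 array (adjusted p up to 0.0901), and signal of its parent gene may reach the same probe.

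Of the 76 genes, 24 had several detected probes, 54 in all. All probes of a gene had the same sign in 13 genes. All passed as higher in 1 gene (Ndufb10) and as lower in 3 (Cox6b1, Ndufaf4 and Uqcr10), 16 mixed probes that passed with probes that did not, 3 had none past the threshold, and Ndufc1 passed both ways. The second Ndufb10 probe passed the detection filter through knockdown arrays alone. The range between a gene's highest and lowest probe had a median of 0.53 on the log2 scale, which is larger than the median absolute change of a member.

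**Figure D3:**
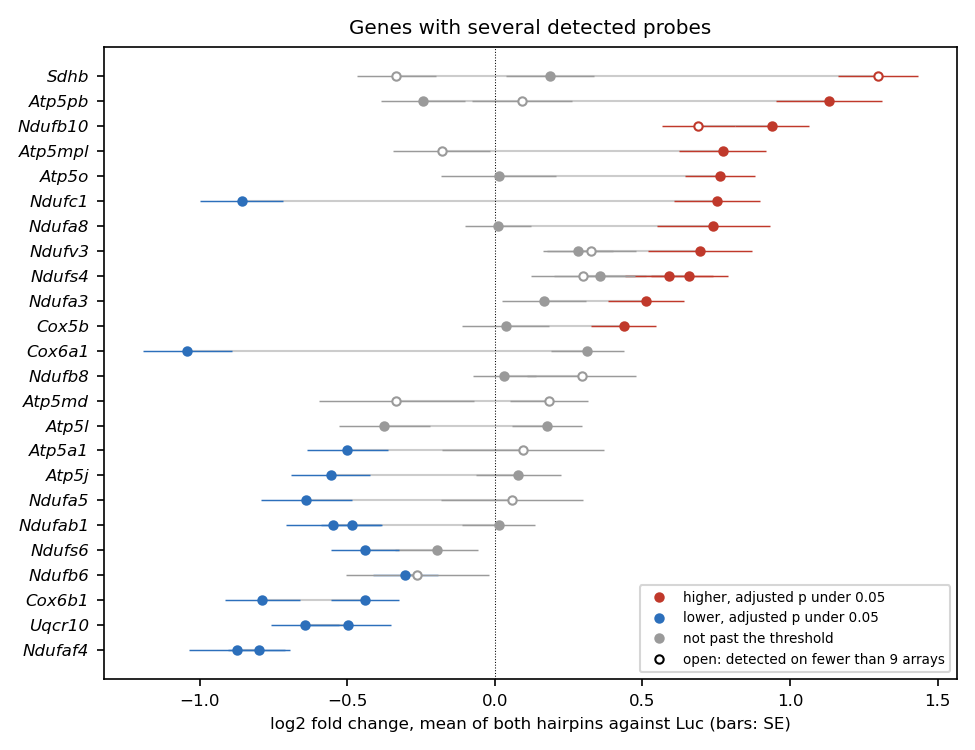
Log2 fold change of each probe (mean of both hairpins against Luc, bars are standard errors) for the 24 genes with several detected probes; open points were detected on fewer than 9 arrays. Ndufc1 has a probe past the threshold on each side of 0, and Sdhb, Atp5pb and Cox6a1 span more than 1 log2 unit; falls turn positive when arrays are scaled to the median of all probes.

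Rises and falls were spread unequally over signal level. When the members were split by mean normalized signal, 5 rose and 3 fell of the 36 lowest, 14 rose and 7 fell of the middle 35, and 9 rose and 15 fell of the 35 highest. In the same signal ranges, 24.1%, 26.7% and 28.8% of all probes rose and 10.6%, 25.6% and 28.9% fell. Across the 85 members detected on all arrays, Spearman's rho of mean signal with log2 fold change was -0.245, against 0.118 across all 6891 such probes; the points share the same 9 arrays and are not independent.

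**Figure D4:**
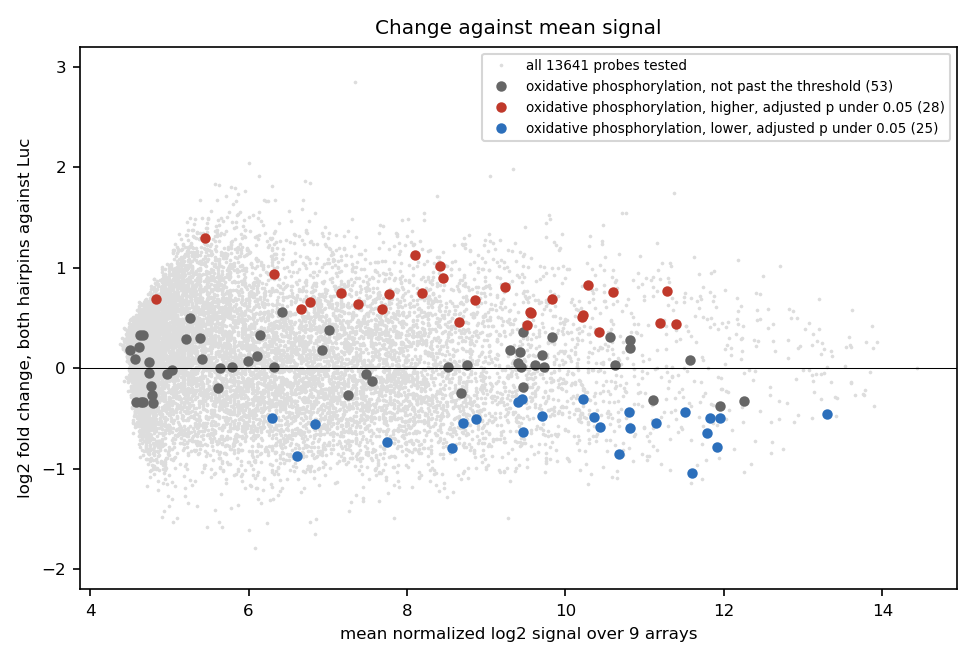
Log2 fold change (mean of both hairpins against Luc) against mean normalized log2 signal over the 9 arrays, for the 106 members in colour or dark grey and all 13641 probes tested in light grey. Of the 35 members with the highest signal 15 fell and 9 rose; falls turn positive when arrays are scaled to the median of all probes.

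Each hairpin alone gave similar counts against the shared Luc arrays. With hairpin 94, 28 members rose and 22 fell, where 20.0% and 12.3% of all probes did (32.4% in either direction), and with hairpin 97, 27 rose and 21 fell, where 20.6% and 12.3% did (32.9% in either direction). Some members passed with 1 hairpin alone and not with both averaged: Ndufs4 (probe ILMN_1234521) and Cox7a1 as higher with hairpin 97, 1 probe of Ndufv3 and the Atp5k probe as higher with hairpin 94, and 1 probe each of Sdhb and Atp5pb as lower with hairpin 94, where no member passed as lower with all-probe scaling. The largest rise was that of Atp5pb (probe ILMN_1249817) with hairpin 97, at 1.38, against 0.89 with hairpin 94, and the largest fall that of Cox6a1 with hairpin 94, at -1.15, against -0.93 with hairpin 97. The fall counts of hairpin 97 dropped to 11, 10 and 10 without its replicate 4, 5 or 6, and the rises of hairpin 94 to 17 without its replicate 1.

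Hairpin 97 was compared with hairpin 94 directly, on arrays of about equal brightness. By limma 0 members passed in either direction, where 0.0293% of all probes passed as higher and 0.110% as lower (0.139% in either direction). An unadjusted limma p under 0.05 was found for 11 of the 106 members and, separately, for 8.55% of all probes tested. Cox5a, chosen after its values were seen, had the smallest p: it was lower with hairpin 97 by -0.57 (95% interval -0.88 to -0.25, limma adjusted p = 0.212). It passed as lower in 3 alternatives, with adjusted p of 0.026 with the background left in, 0.0219 on the deposited matrix and 0.0308 with a variance trend. Over all members the intervals reached up to 1.15 from 0 and the median standard error of a difference was 0.16; a member that did not pass is not shown to be alike with both hairpins.

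Other parts of the pathway were followed through lists outside the name rule. Their counts stand beside the 25.0% of all probes tested that rose and the 15.2% that fell with both hairpins averaged. Of 8 probes for subunits encoded by mitochondrial DNA, 2 rose and 0 fell, with a median of 0.38: CYTB, the cytochrome b of complex III, rose by 0.75 (SE 0.12, limma adjusted p = 0.00105) and ND4, a proton-pumping core subunit of complex I, by 0.70 (SE 0.17, limma adjusted p = 0.00793). Among electron carriers and core subunits outside the rule, 4 of 24 probes rose and 6 fell, led by the fall of Etfa, which feeds electrons from fatty acid oxidation to ubiquinone, by 1.09 at 1 probe (0.32 above 0 with all-probe scaling); its other probes gave 0.11 and 0.19 and did not pass. Coq9 and Coq5, of ubiquinone synthesis, fell by 0.86 and 0.78 (0.58 and 0.65 above 0 with that scaling), while the other Coq5 probes gave -0.36 and 0.11 and did not pass. Cyc1, of complex III, was lower at 1 probe, with a change of -0.49 (0.92 with all-probe scaling). Over all 8 lists, 19 of the 20 probes that fell were above 0 with all-probe scaling (Ppargc1b stayed below, at -0.06). Of the 37 that rose, 14 were below 0 when scaled over probes that every array detected.

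Assembly factors outside the rule differed from the Ndufaf probes in their counts, with 17 of 55 probes higher and 6 lower and a median of 0.22; the difference between the lists was not tested. Tmem126b and Acad9, which act in complex I assembly, rose by 1.43 and 1.10, with probes detected on 1 of 3 Luc arrays each, although the other Acad9 probe, detected on all 9 arrays, gave 0.0082. Sdhaf1, of complex II assembly, rose by 1.29 and 1.10 at its probes. Of 20 probes for regulators of mitochondrial biogenesis and genome maintenance 5 rose and 5 fell. Nrf1, the factor whose motif was searched above, fell by 1.08 (SE 0.12, limma adjusted p = 0.000171) and Ppargc1b, a coactivator of such genes, by 0.97; with all-probe scaling Nrf1 was at 0.37 and Ppargc1b at -0.06. The other Nrf1 probe, detected on 7 arrays, gave 0.33 and did not pass. Gabpb1, of the GABP factor named above for the ETS motif, had a probe called higher at 0.43 and a probe called lower at -0.76. With all-probe scaling these were at 0.94 and 0.42, so no direction can be given for that gene. Tfam, which packages and transcribes mitochondrial DNA, rose by 0.87 at a probe detected on 2 of 3 Luc arrays; its other probe, detected on 0 Luc arrays, also passed as higher, but was at -0.02 when scaled over probes that every array detected. In the citric acid cycle and pyruvate dehydrogenase list 6 of 24 probes rose and 2 fell, where 25.0% and 15.2% of all probes tested did. The rises were led by Mdh2, malate dehydrogenase, at 1.08, and by Pdk3 at 0.99. The inhibitor of the ATP synthase, Atpif1, fell by 0.62 (0.87 above 0 with all-probe scaling) and the phosphate carrier Slc25a3 rose by 0.68, in a list where 2 of 9 probes rose and 1 fell; the other probe of each, at 0.05 and 0.07, did not pass. Of the small lists, 0 of 2 p53-linked probes passed, and of 3 hypoxia-linked probes 1 rose (Hif1a, 0.68, or -0.38 when scaled over probes that every array detected).

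**Figure D5:**
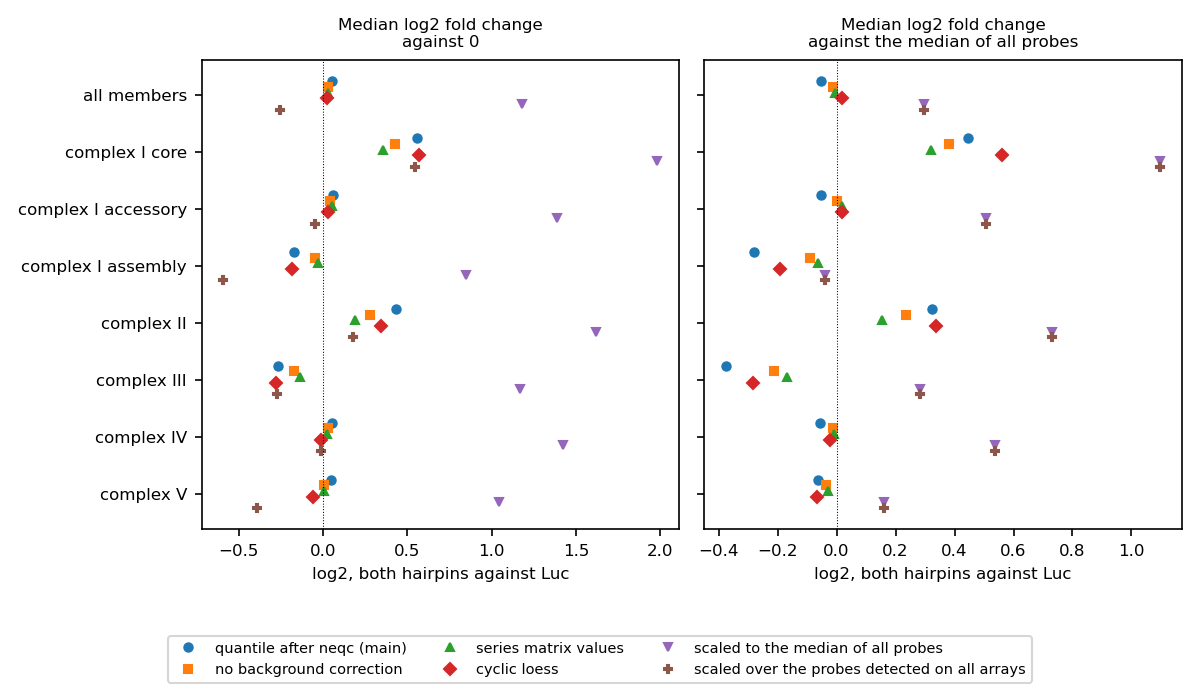
Median log2 fold change of all members and of each complex (mean of both hairpins against Luc) under 6 ways of processing, set against 0 on the left and against the median of all probes tested on the right. Complex I core and complex II lie above the median of all probes tested in all 6, whereas complex III lies below it in 4 and above it in the 2 scalings by a median.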

How the data were processed

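Total RNA of 9 samples was biotin labelled and hybridised to Illumina bead arrays, per the labels' protocols. For every probe the deposited files give an intensity (average bead signal, per the file headers), with background left in and arrays on different scales, as judged from the values, and a detection p-value for each. The deposited series matrix holds log2 values with the rank order of the signals in each array (smallest rank correlation 1) and a median of 6.612 in every column, the mark of quantile normalization, without centring of genes, and the software is not given in the sources used here.

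Signals were corrected with limma 3.58.1 in R 4.3.3 (neqc from detection p-values, offset 16, quantile, log2). Probes with detection p under 0.05 on at least 3 arrays were kept. The model held 1 mean for each group over the 9 arrays (lmFit, eBayes), and Benjamini-Hochberg adjusted p-values ran over all 13641 probes, with a threshold of 0.05. A probe detected on no Luc array has a bound in place of a fold, taken against the higher of the Luc array's lowest detected signal and the probe's own. The fit was tested on simulated data. Correlations between replicate arrays were 0.958 to 0.990. No slide or scan date is given, so no batch was tested. The number of arrays limits the precision; the median standard error of a member was 0.14.

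Members and lists were chosen with earlier results of these data known. The genes named were, per complex, the 3 largest rises and falls without overlap between groups, and by further rules genes with opposite probes, probes detected on no Luc array, complex II, paralogs and the brightest probes. Ndufs3, Ndufv1, Ndufb3, Ndufs4, Atp5a1, Atp5h, Atp5o, Cox5b, Uqcrc1 and Ndufs5-ps were added after their values were seen. So were Cyc1 and Gabpb1 from the lists outside the rule. Gene symbols come from the platform annotation, which can be old. Alternatives changed the background correction, normalization, filter, probe choice, covariate, variance model and arrays.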

Additional observations from a re-analysis of the deposited data

How the results depend on the processing

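The counts of members that rose or fell against Luc (28 and 25 with both hairpins, 28 and 22 with hairpin 94, 27 and 21 with hairpin 97) stayed within 1.5 times with the background left in, on the deposited matrix, with cyclic loess, with a stricter or no detection filter, with 1 probe per gene and with a variance trend. Scaling to the median of all probes gave 91 higher and 0 lower in each of these comparisons. Scaling over probes that every array detected gave 49 lower with both hairpins, 42 with hairpin 94 and 46 with hairpin 97. The share of higher among called members was 52.8% after quantile normalization, 100% and 34.7% after these scalings (62.2%, 99.9% and 15.6% of all called probes). With each array's detected-probe count as a covariate 0 passed in either direction in each comparison; that count follows the groups. With only the groups of the contrast in the fit, 14 fell with hairpin 94; for both hairpins that fit is the same as the one reported. With a replicate block 14 rose and 13 fell with hairpin 94. Same-numbered Luc and hairpin 94 samples correlated at 0.068, 0.049 and 0.141, and differently numbered ones at -0.130 to 0.076. These few values do not decide whether the numbers pair the samples, and the reported fit does not pair them. For hairpin 97 against 94, 1 member (Cox5a) passed as lower in each of 3 alternatives (the background left in, the deposited matrix, a variance trend), against 0. The cause of these shifts was not tested.

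Medians of log2 fold change were counted as moved when they shifted by more than the SD over the 6 knockdown arrays; another definition of this spread was tried after values were seen and was not kept. With the background left in, the medians were 0.033 for hairpin 94 alone, 0.052 for hairpin 97 alone, 0.42 for complex I core, -0.048 for complex I assembly and 0.28 for complex II. On the deposited matrix, the medians were 0.031 for hairpin 94 alone, 0.045 for hairpin 97 alone, 0.35 for complex I core, -0.029 for complex I assembly and 0.19 for complex II. With cyclic loess, the medians were 0.025 for all members, 0.044 for hairpin 97 alone, -0.013 for complex IV and -0.059 for complex V. Scaling to the median of all probes gave medians of 1.18 for all members, 1.18 for hairpin 94 alone, 1.24 for hairpin 97 alone, 0.028 for hairpin 97 against 94, 1.98 for complex I core, 1.39 for complex I accessory, 0.85 for complex I assembly, 1.61 for complex II, 1.17 for complex III, 1.42 for complex IV and 1.04 for complex V. Scaling over probes that every array detected gave medians of -0.26 for all members, -0.23 for hairpin 94 alone, -0.22 for hairpin 97 alone, -0.047 for complex I accessory, -0.59 for complex I assembly, 0.18 for complex II, -0.014 for complex IV and -0.39 for complex V. Testing only probes detected on all 9 arrays gave medians of -0.36 for complex I assembly, 0.19 for complex IV and -0.13 for complex V. With 1 probe per gene, the medians were 0.022 for all members, 0.044 for hairpin 97 alone, 0.011 for complex I accessory, 0.0013 for complex I assembly and -0.19 for complex V. With the detected-probe count as a covariate, the medians were 0.096 for all members, 0.11 for hairpin 94 alone, 0.072 for hairpin 97 alone, 0.71 for complex I core, 0.26 for complex I accessory, -0.33 for complex I assembly, 0.61 for complex II and -0.087 for complex IV. Leaving out 1 array at a time gave medians of 0.037 to 0.10 for all members, 0.054 to 0.11 for hairpin 94 alone, 0.056 to 0.12 for hairpin 97 alone, -0.031 to 0.015 for hairpin 97 against 94, 0.46 to 0.57 for complex I core, 0.029 to 0.14 for complex I accessory, -0.38 to -0.062 for complex III and -0.00050 to 0.20 for complex IV. It also gave 26 to 31 rises and 20 to 24 falls with both hairpins, 17 to 29 and 16 to 22 with hairpin 94, and 18 to 26 and 10 to 19 with hairpin 97.

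Among the probes named, 27 changed sign with scaling to the median of all probes, at 0.77 for Ndufa5, 0.75 for Ndufa9, 0.52 for Ndufc1, 0.53 for Ndufaf4, 0.63 for Ndufaf4, 0.72 for Ndufaf8, 0.83 for Uqcr10, 0.78 for Uqcrc2, 0.43 for Cox6a1, 1.38 for Cox6a2, 0.69 for Cox6b1, 0.91 for Cox6b1, 0.44 for Cox7a2, 1.08 for Ndufa4, 0.89 for Atp5c1, 0.87 for Atp5j, 1.31 for Atp5g2, 1.17 for Atp5g3, 1.02 for Atp5j2, 1.22 for Ndufv1, 0.80 for Ndufs6, 1.00 for Ndufs6, 0.99 for Uqcr10, 0.85 for Atp5a1, 0.71 for Atp5b, 1.18 for Atp5pb and 1.07 for Ndufs5-ps. Another 8 changed sign when scaled over probes that every array detected, at -0.61 for Ndufb10, -1.02 for Ndufv3, -1.12 for Atp5e, -1.03 for Atp5k, -1.22 for Atp5md, -0.48 for Ndufs4, -0.57 for Atp5a1 and -1.25 for Atp5pb. For the Ndufb10, Ndufv3, Atp5e, Atp5k and Atp5md probes, detected on no Luc array, these are fitted differences and not folds. Leaving out 1 array moved Cox7a2 between -0.32 and 0.49, and it passed without Luc replicate 2. In this paragraph, changes of sign were counted only where the reported fit or the alternative passed the threshold. Of the other values of named probes under the alternatives, 1129 kept their side of the threshold, including any that changed sign with neither fit passing. The threshold was newly passed by 41 and no longer passed by 55, 42 of these with the detected-probe count as a covariate. Weak signal over background on the Luc arrays limits what the dim probes can show, and 3 arrays a group limit the precision.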
